A study of Mus musculus with 21 samples.

Results

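The antigen receptor loci are the 6 regions of the mouse genome that lymphocytes cut and rejoin, and 247 of the 96474 probes of this copy number study lay in them. The members were chosen by position alone (mm9). They are 40 probes in Tcrb (T cell receptor β, chr6:40840000-41510000), 44 in Tcra/Tcrd (T cell receptors α and δ, chr14:53047000-54846000), 7 in Tcrg (T cell receptor γ, chr13:19270000-19450000), 74 in Igh (antibody heavy chain, chr12:114490000-117250000), 74 in Igk (κ light chain, chr6:67500000-70700000) and 8 in Igl (λ light chain, chr16:19020000-19265000). Each tumour gave a log2 ratio of tumour DNA over reference DNA at each probe, centred on the median of its array, and a locus was read as the mean of its probes minus the mean of the probes in the 3 Mb on either side, called its flank.

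All tumours came from livers of C57BL/6 mice kept for 12 months on CD-HFD, a high-fat diet lacking choline on which steatohepatitis (NASH) develops. One group held 12 tumours of 7 mice that were also given anti-PD1, an antibody that blocks the PD1 receptor of T cells, for 8 weeks, and the other held 9 tumours of 7 mice on CD-HFD alone. DNA was taken from fixed, paraffin-embedded tumour tissue, so that hepatocyte-derived and infiltrating cells were measured together. The reference on every array was a pool of C57BL/6 DNA that the labels describe as liver tails. The leading number of a sample name was read as the mouse, because several lesions share it; the labels do not state this.

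In developing lymphocytes the RAG1/RAG2 recombinase joins 1 variable (V) segment, in some loci a diversity (D) segment, and a joining (J) segment next to a constant (C) region, and often deletes the DNA between them. T cells rearrange Tcrb with Tcra, or Tcrg with Tcrd, whose segments lie inside Tcra, and B cells rearrange Igh and then Igk or Igl. Hepatocytes keep all of these loci in the germline order. NASH livers are known for their infiltrating T cells, so the loci are a place where lymphocyte DNA within a tumour could in principle alter a copy number ratio. As a scale, a locus deleted on both alleles in 10% of cells, with 2 copies in all others and in the reference, would have a log2 ratio of −0.15, and in 5% of cells −0.074. In DNA of whole tumour, fewer rearranged cells and a smaller deleted part per cell cannot be told apart.

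A selection of the probes at the D, J and C ends of the loci is shown, and 6 of the 7 Tcrg probes because that locus gave the highest value. The joints of V, D and J segments lie at these segments, and several of the listed probes lie nearest to constant regions instead. Each probe is given 5′ to 3′ as on the array, with its mm9 position and the nearest segment in the GRCm38 annotation (GENCODE), to whose plus strand each of the listed sequences matched exactly. Capitals mark bases of an annotated coding segment, and sequences wholly in lower case lay outside coding sequence. The first 6 belong to Igh, the next 3 to Tcra/Tcrd, the next 2 to Igk, the next to Tcrb and the last 6 to Tcrg.
A_67_P07756493, 1181 bases from Ighe (chr12:114512640-114512699): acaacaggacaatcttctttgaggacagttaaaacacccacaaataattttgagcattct
A_67_P02611003, 3945 bases from Ighg2c (chr12:114519532-114519591): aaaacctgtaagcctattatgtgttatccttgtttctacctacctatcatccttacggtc
A_67_P02611066, 956 bases from Ighg1 (chr12:114562436-114562495): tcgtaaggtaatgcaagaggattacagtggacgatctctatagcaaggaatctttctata
A_67_P02611081, 521 bases from Ighg1 (chr12:114569255-114569314): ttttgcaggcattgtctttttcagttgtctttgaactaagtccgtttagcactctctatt
A_67_P07756760, within Ighd (chr12:114647363-114647422): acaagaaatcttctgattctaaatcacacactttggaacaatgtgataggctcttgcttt
A_67_P02611198, 2893 bases from Ighd3-2 (chr12:114683474-114683532): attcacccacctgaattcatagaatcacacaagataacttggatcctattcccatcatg
A_53_P163129, within Trdc (chr14:54763436-54763495): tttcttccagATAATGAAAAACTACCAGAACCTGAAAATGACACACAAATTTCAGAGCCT
A_67_P08115212, 112 bases from Traj45 (chr14:54792677-54792736): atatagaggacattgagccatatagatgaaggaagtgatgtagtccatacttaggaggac
A_53_P107889, 410 bases from Traj11 (chr14:54827282-54827341): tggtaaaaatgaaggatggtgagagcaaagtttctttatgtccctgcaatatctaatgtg
A_53_P160319, 3835 bases from Igkj1 (chr6:70668662-70668721): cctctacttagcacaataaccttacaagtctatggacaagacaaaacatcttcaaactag
A_67_P05934539, 1018 bases from Igkc (chr6:70677978-70678037): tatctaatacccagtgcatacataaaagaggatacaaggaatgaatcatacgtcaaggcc
A_67_P01312871, 2810 bases from Trbc2 (chr6:41501161-41501220): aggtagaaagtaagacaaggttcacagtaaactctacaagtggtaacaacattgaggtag
A_67_P07801168, 2005 bases from Tcrg-V4 (chr13:19274779-19274838): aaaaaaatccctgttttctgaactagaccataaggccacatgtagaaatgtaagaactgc
A_53_P151990, 702 bases from Tcrg-V6 (chr13:19281464-19281523): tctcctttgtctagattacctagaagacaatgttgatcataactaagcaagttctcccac
A_67_P07801257, 5538 bases from Tcrg-C1 (chr13:19314431-19314490): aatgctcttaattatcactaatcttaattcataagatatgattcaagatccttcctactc
A_53_P149064, 7436 bases from Tcrg-C2 (chr13:19389023-19389082): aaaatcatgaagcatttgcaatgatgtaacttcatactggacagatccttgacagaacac
A_67_P02640750, 751 bases from Trgv2 (chr13:19429787-19429846): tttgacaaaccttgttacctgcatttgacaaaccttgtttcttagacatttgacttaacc
A_53_P134830, within Tcrg-C4 (chr13:19436617-19436676): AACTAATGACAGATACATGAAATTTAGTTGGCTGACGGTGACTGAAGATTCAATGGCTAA

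Tumours lay on 3 slides, with 4 of each group on slides 1 and 2, and on slide 3 with 4 from anti-PD1 mice and 1 from an untreated mouse. Slide 1 carried one array design and slides 2 and 3 another, so the 8 tumours of slide 1 were read with 179 member probes and the other 13 tumours with 90, of which only 22 were common to both designs. The array noise was 0.41 to 0.68 (log2, difference between neighbouring probes), and at least 65.0% of spots were well above background in the tumour channel. Among readings of members, the share well above background in both channels, the measure used for single probes below, ran from 87.6% in Tcrg to 98.2% in Tcrb. The log2 ratio changed by −0.21 to −0.59 for every 10 percentage points of GC content in the probe. The recombination signal heptamer CACAGTG, searched on both strands, was found in 1 of 247 members and in 0.892% of all probes, and the nonamer ACAAAAACC in 0 members and 0.120% of all probes.

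Over all tumours, 5 of the 6 loci were higher than their flanks and 1, Igk, did not pass the test, but most regions of the genome also differed from their flanks. The limma fit with the mouse as a random block (two-sided, Benjamini-Hochberg adjustment over 2248 regions, threshold 0.05) called 69.8% of all regions, 37.3% as higher and 32.5% as lower than their flanks. A call for a single locus is therefore no result about it, and each value is given beside its place among the 2223 windows of 1 Mb, with a median of 0.0071 and an SD of 0.14. The windows were not matched to a locus in number of probes. The plot of single tumours shows the spread within each group.

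**Figure D1:**
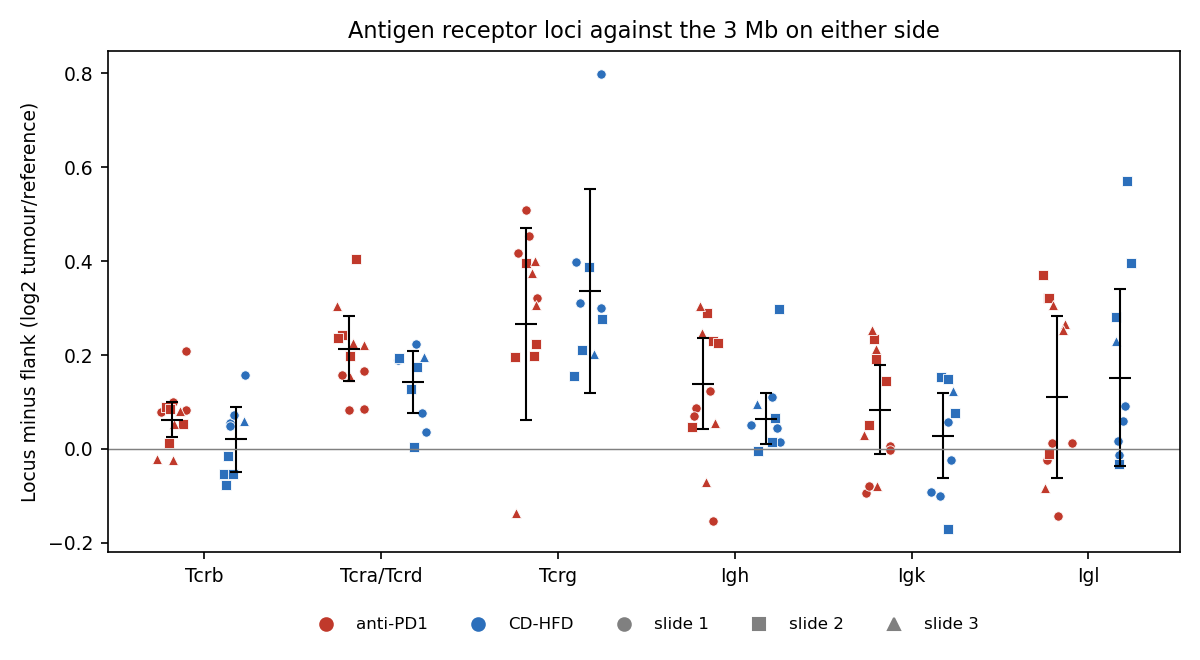
Mean log2 ratio of each locus minus its flank in each of 21 tumours, in red for anti-PD1 and blue for CD-HFD, with the slide as symbol; bars give the mean and SD over 7 mice per group. The groups overlap at every locus, and Tcrg was above 0 in 20 of 21 tumours.

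Of the T cell receptor loci, Tcrb was closest to its flank. It had −0.025 to 0.21 (median 0.080) in the 12 anti-PD1 tumours and −0.077 to 0.16 (median 0.049) in the 9 CD-HFD tumours, and was above 0 in 15 of 21. The fitted value was 0.047 (standard error, SE, 0.016; adjusted p = 0.0148 in limma), and 37.9% of windows were at least as high. Without mouse 608 it was 0.036 (adjusted p = 0.0575 in limma), so this call rested on that mouse. Without slide 1 it was 0.014 (adjusted p = 0.462).

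Tcra/Tcrd was above its flank in all 21 tumours. It had 0.083 to 0.40 (median 0.21) in anti-PD1 tumours, and 0.0049 to 0.22 (median 0.17) on CD-HFD. The fitted value was 0.18 (SE 0.020, adjusted p = 5.46e-08 in limma), and 9.63% of windows were at least as high. Its V part, which holds all but 4 of its probes, was at 0.18 (SE 0.022, adjusted p = 1.65e-07), and at 0.017 (adjusted p = 0.523) after correction for GC content.

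Tcrg, the smallest locus, gave the highest value. It had −0.14 to 0.51 (median 0.35) in anti-PD1 tumours, and 0.16 to 0.80 (median 0.30) on CD-HFD. The fitted value was 0.32 (SE 0.037, adjusted p = 6.93e-08 in limma), and 1.89% of windows were at least as high. It rests on 5 probes per tumour.

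Igh had −0.15 to 0.30 (median 0.11) in anti-PD1 tumours, and −0.0033 to 0.30 (median 0.052) on CD-HFD. Its fitted value was 0.10 (SE 0.027, adjusted p = 0.00175 in limma), and 22.6% of windows were at least as high. Igk had −0.095 to 0.25 (median 0.041) in anti-PD1 tumours, and −0.17 to 0.15 (median 0.058) on CD-HFD, with a fitted value of 0.050 (95% interval −0.0060 to 0.11, adjusted p = 0.103 in limma). On slide 1 Igk ran from −0.10 to 0.058 and on the 13 other arrays from −0.17 to 0.25, and without slide 1 it passed, at 0.11 (adjusted p = 0.00667). With the slide as a block it also passed, at 0.058 (adjusted p = 0.0101), and 34.9% of windows were at least as high. Igl had −0.14 to 0.37 (median 0.13) in anti-PD1 tumours, and −0.032 to 0.57 (median 0.091) on CD-HFD, and its fitted value of 0.15 (SE 0.040, adjusted p = 0.00179 in limma) was reached by 13.2% of windows. The array designs differed here too. On slide 1 the median of Igl was 0.013, which 45.8% of windows reached, and on the 13 other arrays 0.28, which 6.34% reached. Without slide 2, Igh was at 0.076 (adjusted p = 0.0534) and Igl at 0.077 (adjusted p = 0.0973), so neither passed, with fewer arrays left. The medians on slides 1, 2 and 3 were 0.061, 0.14 and 0.096 at Igh. At Igl they were 0.013, 0.32 and 0.25.

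The loci are poorer in GC than their flanks, and a correction for GC content changed the direction of 4 of them. Over the 50 kb around each probe, the mean GC content was 40.2% at Igh members and 47.0% in the flank, 38.9% and 43.1% at Igk, 39.1% and 45.5% at Igl, and 40.5% and 40.6% at Tcrg. When the GC content of each probe and its surrounding 50 kb was corrected for, Igh was at −0.15 (adjusted p = 7.65e-06 in limma), Igk at −0.098 (adjusted p = 0.000105), Igl at −0.095 (adjusted p = 0.0155) and Tcrb at −0.017 (adjusted p = 0.350), where 65.5% of all regions were called, 31.3% as higher and 34.2% as lower. Tcra/Tcrd fell to 0.037 (adjusted p = 0.0601). Tcrg was at 0.29 (adjusted p = 1.73e-07), with 0.990% of windows at least as high. In the other direction, 10.3% of windows were at least as low as Igh, 18.3% as Igk and 19.0% as Igl. No locus other than Tcrg thus stood in the outer 5% of windows after the correction. Tcrg has only 5 probes per tumour, and the windows were not matched to that number. Of runs of 5 neighbouring probes, without flank subtraction or GC correction, 3.16% on design 1 and 10.98% on design 2 were at least as high as Tcrg.

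**Figure D2:**
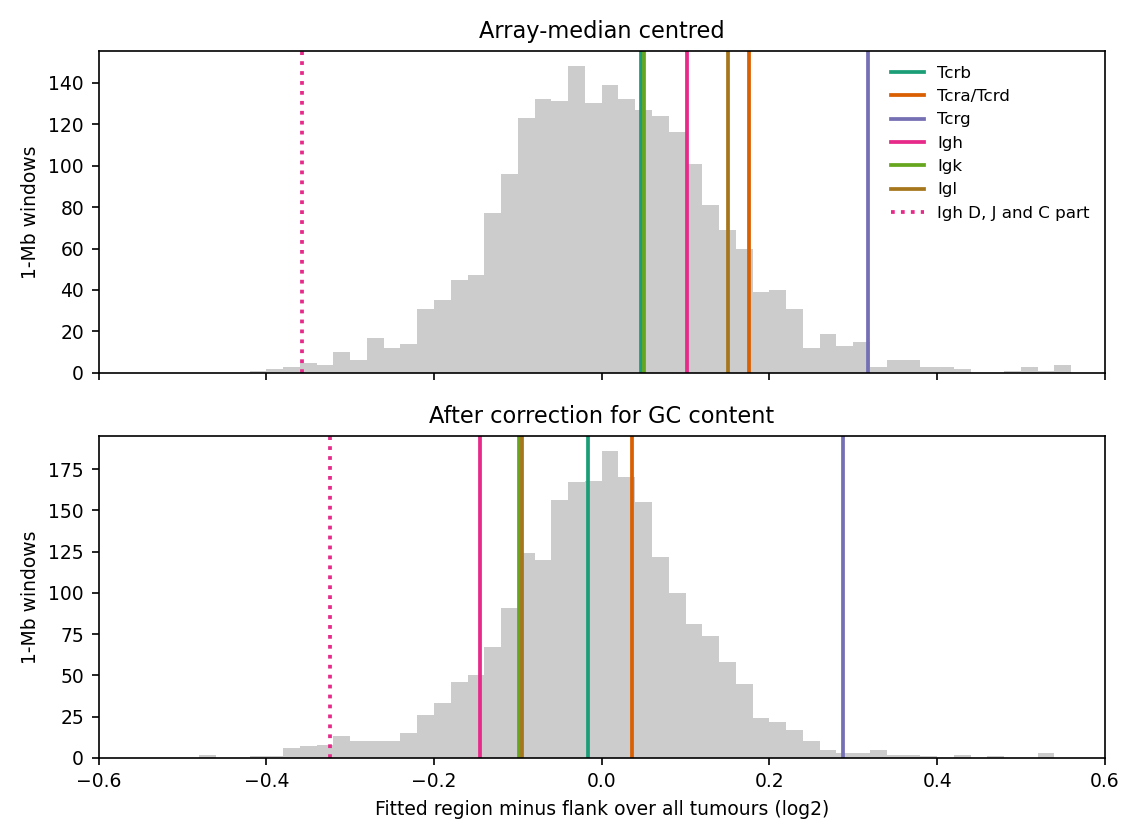
Fitted difference from the flank over 21 tumours (x axis, log2) for 2223 windows of 1 Mb (grey, y axis in windows) and for the loci (lines), before and after correction for GC content. Windows above 0.6 are outside the panels, 4 before and 1 after the correction. Igh, Igk and Igl move from the right to the left of 0 with the correction, and Tcrg stays near the right edge.

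The 2 ends of Igh differed in the fit over all tumours, but not on both array designs. The V part, with most of its probes, was at 0.23 (SE 0.043, adjusted p = 4.36e-05 in limma), and the part that spans the D, J and C segments was at −0.36 (SE 0.080, adjusted p = 0.000407), a value reached by 0.270% of windows. After the correction for GC content the D, J and C part was still at −0.32 (adjusted p = 0.00157), and the V part at −0.078 (adjusted p = 0.0454). The V part ran from −0.17 to 0.12 (median 0.058) on design 1 and from 0.10 to 0.58 (median 0.29) on design 2. The D, J and C part ran from −0.89 to −0.43 (median −0.64) in the 13 tumours of slides 2 and 3 and from 0.0019 to 0.20 (median 0.13) in the 8 tumours of slide 1, with no overlap. On design 1 the D, J and C part thus had the higher median of the 2 ends. It was at −0.65 without slide 1 and at −0.15 (adjusted p = 0.159) without slide 2.

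The designs read this end with different probes. On design 2 it had 3 probes, each nearest to a constant region and not to a D or J segment. The probe within Igha, the constant region of IgA, had −1.14 to −0.48 (median −0.66). The probe 3945 bases from Ighg2c, an IgG constant region, had −1.26 to −0.51 (median −0.67). The probe 521 bases from Ighg1 had −1.27 to −0.70 (median −0.93). Each was below 0 in 13 of 13 tumours. Over the autosomes, 0.760% of 52355 runs of 3 neighbouring probes on this design had a mean of medians as low, and 16.5% of such runs were below 0 at all 3 probes. On design 1 the same end had 6 probes, of which 4 had a median below 0 and 2 above. Their mean of medians was −0.071, and 35.8% of runs of 6 neighbouring probes on that design were at least as low. The probe 956 bases from Ighg1 had −1.34 to −0.21 (median −0.36) and was below 0 in 8 of 8 tumours. The probes near Ighg3, Ighd3-2 and Ighd3-1 had medians of −0.29, −0.51 and −0.29. In contrast, the probe 1181 bases from Ighe, the IgE constant region, had −0.90 to 1.46 (median 0.52), and the probe within Ighd, the IgD constant region, had 0.028 to 1.29 (median 0.50). In lesion 1 of mouse 608 the probes near Ighg1 (−1.34) and Ighe (−0.90) had their lowest values and were not well above background. No probe of this end was on both designs, so the slide, the design and the probes cannot be told apart.

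**Figure D3:**
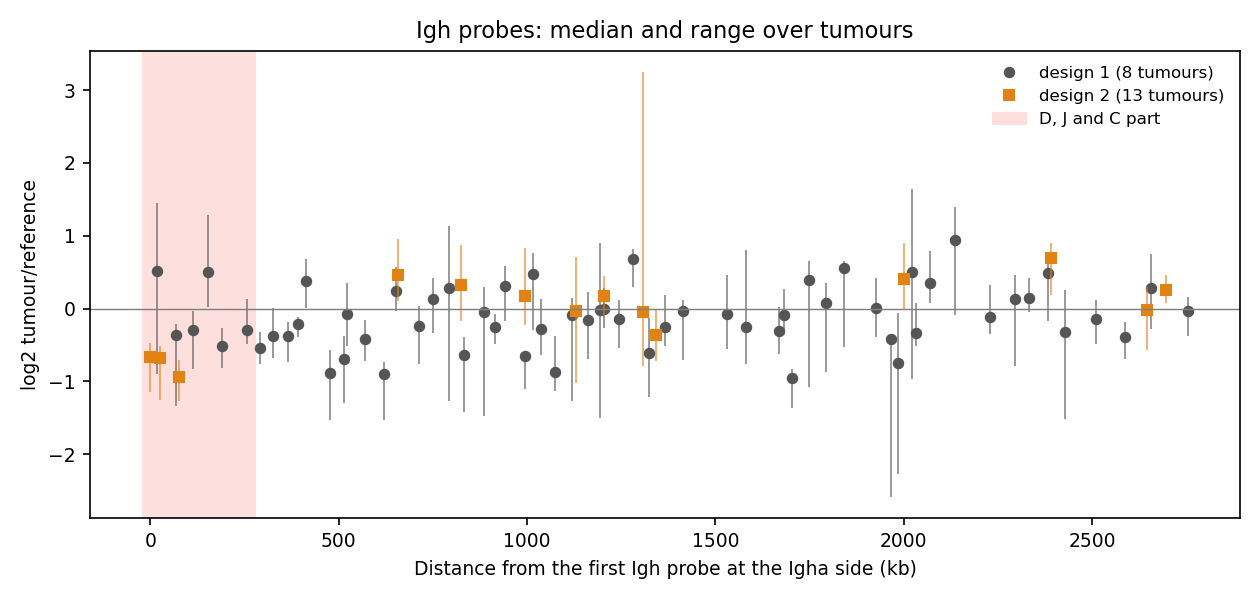
Log2 ratio of each Igh probe, as the median (symbol) and the range over tumours (line), against its distance in kb from the first probe at the Igha side; design 1 was read in 8 tumours and design 2 in 13. The 3 design 2 probes in the shaded D, J and C part have medians of −0.66 to −0.93, and those of design 1 in the same part run from −0.51 to 0.52.

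At Tcrg, 3 of the 7 probes were read in all 21 tumours, and all 3 had high medians on both designs. The probe 2005 bases from Tcrg-V4 had 0.22 to 0.97 (median 0.61) and was above 0 in 21 of 21 tumours, with a median of 0.74 on design 1 and 0.56 on design 2. The probe 702 bases from Tcrg-V6 had −0.96 to 0.96 (median 0.42) and was above 0 in 18 of 21. It was well above background in 17 tumours, where it had −0.036 to 0.96. The probe 7436 bases from Tcrg-C2, a γ constant region, had −1.20 to 1.28 (median 0.58) and was above 0 in 19 of 21. It was well above background in those 19, where it had 0.27 to 1.28. The other end of the locus was near 0. The probe 751 bases from Trgv2 had a median of −0.042, and the 2 probes within Tcrg-C4 had medians of 0.18 and 0.058. Of runs of 5 neighbouring probes, 3.16% on design 1 and 10.98% on design 2 had a mean of medians at least as high as the 5 Tcrg probes of that design. On design 1 the highest median was that of the probe 5538 bases from Tcrg-C1 (−0.21 to 2.03, median 0.77), which was not well above background in 7 of 8 tumours, among them the 1 with the ratio of 2.03. With only probes well above background the locus had too few probes for a value. Amph and Stard3nl, the genes on either side of Tcrg, had fitted values of 0.041 (adjusted p = 0.0859) and 0.044 (adjusted p = 0.0680) over the probes within 500 kb of each gene, which include the Tcrg probes. Neither passed, but with the slide as a block both did (0.039, adjusted p = 0.00843, and 0.043, adjusted p = 0.00598).

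**Figure D4:**
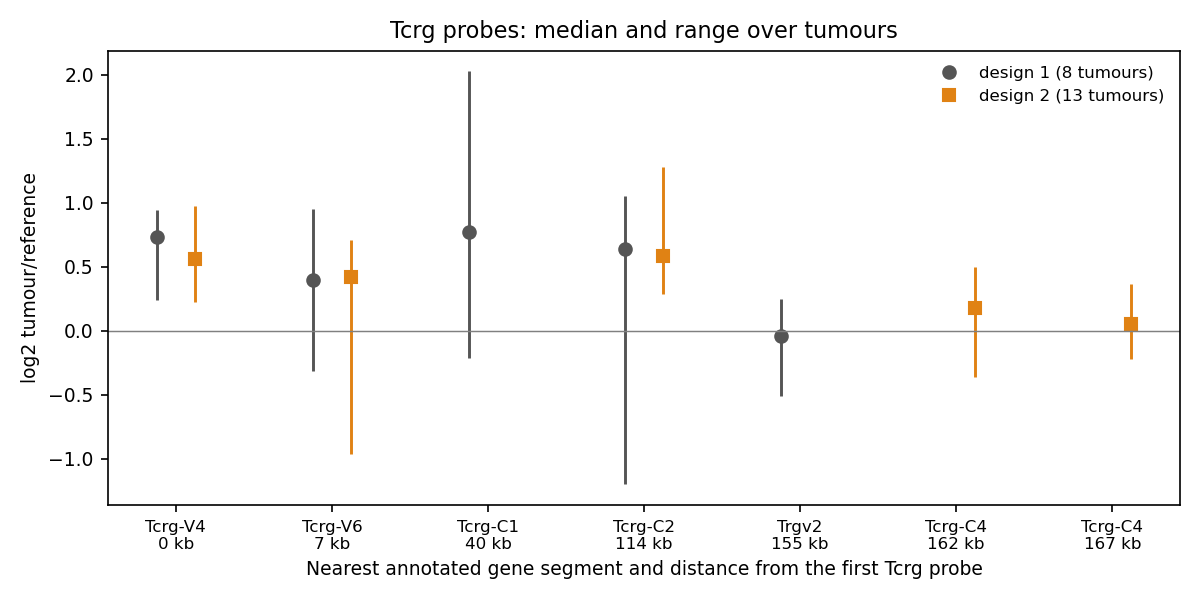
Log2 ratio of the 7 Tcrg probes as the median (symbol) and range (line) over 8 tumours of design 1 and 13 of design 2, in chromosome order, with the nearest segment and the distance from the first probe. The 3 probes on both designs have medians between 0.40 and 0.74 on each, and the probes at the Trgv2 and Tcrg-C4 end lie between −0.042 and 0.18.

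The remaining probes next to J and C segments showed no common direction. In Tcra/Tcrd, the probe with 50 coding bases of Trdc, the δ constant region, had 0.11 to 1.24 (median 0.75) and was above 0 in 13 of 13 tumours. The probe 112 bases from Traj45 had −0.97 to 0.020 (median −0.61) and was above 0 in 1 of 8. Between them in level, the probe 410 bases from Traj11 had −0.40 to 0.13 (median −0.033) in all 21 tumours, and the probe 414 bases from Trdd2 had −0.43 to 0.67 (median −0.072) in 8. Trdd2 and Trdc lie between the Tcra V and J segments and are deleted when Tcra rearranges. In Igk, the probe 3835 bases from Igkj1, between the V and the J segments, had −1.11 to 0.16 (median −0.25) and was below 0 in 18 of 21 tumours, while the probe 1018 bases from Igkc, a region that functional κ rearrangement keeps, had −1.33 to −0.24 (median −0.67) and was below 0 in 8 of 8. In Tcrb, the probe 14582 bases from Trbd1 had −0.92 to −0.29 (median −0.71) and the probe 2810 bases from Trbc2 had 0.37 to 0.66 (median 0.57), each in the same direction in 8 of 8 tumours.

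Single probes differed from each other more than tumours differed at a probe. The SD of probe medians over all members was 0.50 on design 1 and 0.48 on design 2, and the median SD of a member over tumours was 0.26 on both. The values over all autosomal probes were the same in size, 0.51 and 0.51 between probes and 0.26 and 0.25 over tumours. A member was above 0 in every tumour in 18.4% of cases on design 1 and 21.1% on design 2, against 20.5% and 19.1% of all autosomal probes. It was below 0 in every tumour in 22.3% and 13.3%, against 22.6% and 21.5%. Igh on design 1 had 19 of 61 probes (31.1%) below 0 in every tumour and 4 (6.56%) above, and on design 2 it had 3 of 14 (21.4%) in each direction. These counts take no account of the flank of Igh, whose mean was −0.48 to 0.033 in the tumours of design 1.

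The extremes of each locus were single probes, most of which kept their sign in every tumour. The highest members were a probe 6876 bases from Trav18 (1.44 to 2.45, median 1.99, 8 tumours), one 20150 bases from Trav2 (0.83 to 2.45, median 1.55, 13 tumours) and one 11942 bases from Igkv15-103 (0.64 to 1.96, median 1.54, 8 tumours). None of these 3 was well above background in any tumour. In Igk the next was 1428 bases from Igkv4-75 (median 1.22), and in Tcrb the highest lay in 1700074P13Rik (0.35 to 1.45, median 1.27) and 1810009J06Rik (0.75 to 1.49, median 0.96). Igh had its highest medians 4509 bases from Ighv1-62-1 (0.94, well above background in 1 of 8 tumours) and 622 bases from Ighv8-12 (0.69), and Igl 1882 bases from Iglv3 (0.64) and 3138 bases from Iglv1 (0.39). The lowest members were the probe 521 bases from Ighg1 given above (median −0.93) and probes near V segments, 6183 bases from Igkv8-21 (−1.23 to −0.67, median −0.99), 3146 bases from Ighv1-44 (−1.37 to −0.83, median −0.95), 530 bases from Trbv13-1 (−1.41 to −0.66, median −0.90) and 2050 bases from Igkv6-32 (−1.21 to −0.55, median −0.87). In Tcrb a probe 176 bases from Trbv16 had a median of −0.80, and in Tcra/Tcrd one 3447 bases from Trav23 had −0.70. Igl was lowest 1920 bases from Iglv2 (−0.28) and 7886 bases from Iglv1 (−0.27). One reading stood far from its own probe, at the coding probe of Ighv15-2, where lesion 1 of mouse 2064 had 3.25 and the 12 other tumours had −0.79 to 0.37.

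Probes of genes that are not receptor genes were listed in 2 of the loci. Tcrb holds pancreatic trypsinogen and related protease genes, and their probes had medians from −0.33 (a probe of Prss1) to 1.27 (1700074P13Rik); Prss58 had 0.12, Try4 0.35, Try5 0.054, the 2 probes of Prss1 0.23 and −0.33, a probe in Prss2 −0.021, and the 2 of 2210010C04Rik 0.59 and −0.17. At the V end of Tcra/Tcrd, the odorant receptor genes Olfr1507, Olfr1508 and Olfr1509 had 6 probes with medians from −0.46 to 0.14.

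Whether anti-PD1 treatment went with a different reading at these loci was tested on locus minus flank. No locus passed in limma, with 0 of 6 called, where 0% of all 2248 regions were called and 52 windows had an unadjusted p under 0.05. After correction for GC content it was again 0 of 6, with 0% of all regions called and 65 windows at an unadjusted p under 0.05. The smallest adjusted p over all regions was 0.9999 before and 0.997 after the correction. Tcra/Tcrd was 0.21 ± 0.069 in anti-PD1 mice and 0.14 ± 0.066 in CD-HFD mice (mean ± SD over mice, n = 7 each). The fitted difference was 0.071 (95% interval −0.0094 to 0.15), and 0.050 (95% interval −0.018 to 0.12) after the correction for GC content. The exact permutation test over mice gave p = 0.0798 (two-sided, 3432 splits). Of the 7 mice given antibody, 6 exceeded the CD-HFD mean at Tcra/Tcrd, 6 at Tcrb, 5 at Igk, 4 at Igh, 3 at Tcrg and 2 at Igl. Tcrb had 0.063 ± 0.037 and 0.021 ± 0.069, a fitted difference of 0.044 (95% interval −0.023 to 0.11, exact permutation p = 0.182). Tcrg had 0.27 ± 0.20 and 0.34 ± 0.22, a fitted difference of −0.036 (95% interval −0.19 to 0.12, exact permutation p = 0.551). The B cell loci had fitted differences of 0.047 for Igh (95% interval −0.066 to 0.16, exact permutation p = 0.0991), 0.053 for Igk (95% interval −0.060 to 0.17, exact permutation p = 0.294) and −0.044 for Igl (95% interval −0.21 to 0.12, exact permutation p = 0.673). Without the Ighv15-2 probe, left out after its values were seen, the Igh difference in mouse means was 0.083 in place of 0.074, with an exact permutation p of 0.0408 that is not adjusted for the 6 loci. For the Igh D, J and C part the fitted difference was −0.044 (95% interval −0.39 to 0.30). These p-values measure the spread between the mice sampled, and the number of arrays limits the precision.

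On slide 2, anti-PD1 was above CD-HFD by 0.099 at Tcrb and by 0.12 at Tcra/Tcrd, each with an exact permutation p of 0.10, the smallest that 3 against 3 mice allow. On slide 1 the differences were 0.032 (exact permutation p = 0.30) and −0.0022 (exact permutation p = 1). On slide 3, with 1 CD-HFD mouse, they were −0.038 and 0.030 without a test. The other loci differed within slides 1 and 2 by −0.041 and 0.0056 at Tcrg, 0.0068 and 0.10 at Igh, 0.0060 and 0.064 at Igk, and −0.052 and −0.017 at Igl, with exact permutation p-values of 0.30 or more. The Igh D, J and C part differed by −0.071 (exact permutation p = 0.40) on slide 1 and by 0.22 (exact permutation p = 0.10) on slide 2, in opposite directions. With the slide as a block, Tcrb was at 0.054 (95% interval 0.0043 to 0.10, adjusted p = 0.622 in limma) and Tcra/Tcrd at 0.065 (95% interval −0.0060 to 0.14, adjusted p = 0.681).

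**Figure D5:**
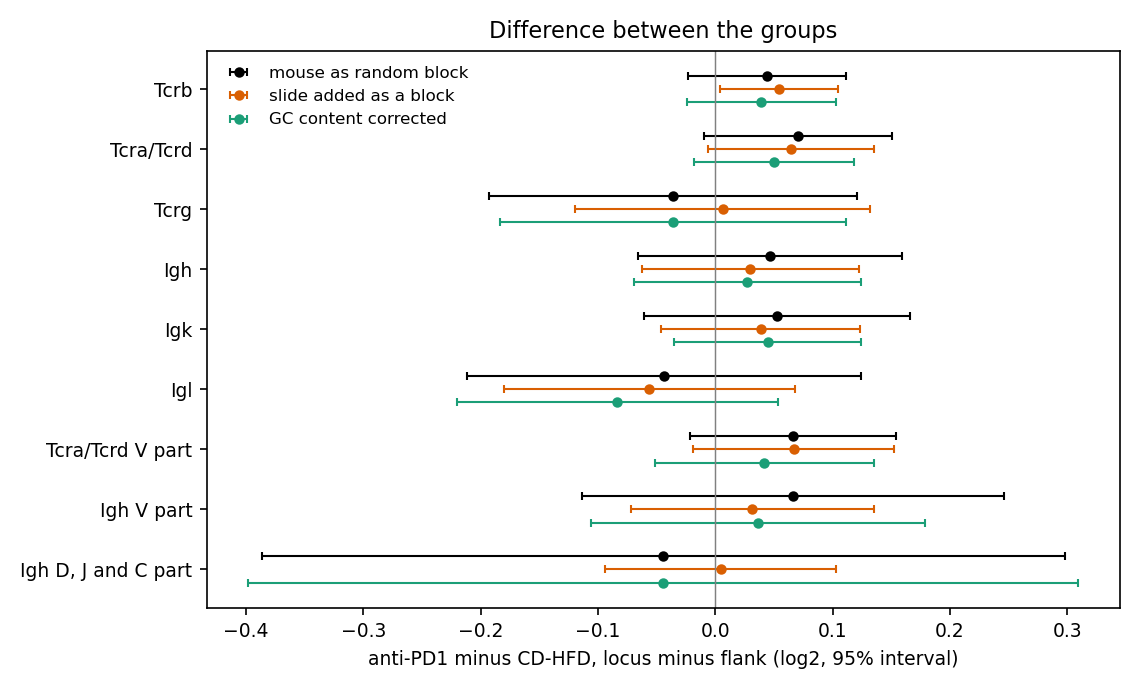
Fitted anti-PD1 minus CD-HFD difference in locus minus flank (x axis, log2, points) with 95% intervals (bars) for the loci and their parts, with the mouse as random block, with the slide added as a block, and after GC correction. With the mouse as random block all intervals hold 0.

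No single member passed a test between the groups. Of the 22 members on both designs, 0 passed in limma over 12703 probes, where 0% of all were called, and 1 (4.55%) had an unadjusted p under 0.05 against 7.82% of all probes. It lies 4778 bases from Igkv12-89, differed by −0.45 in the fit (SE 0.13, adjusted p = 0.573), and was not well above background in 10 of 21 tumours. With the tumours of each design fitted alone, 0 of 179 members passed on design 1, where 0.0478% of 54449 probes were called, and 32 members (17.9%) had an unadjusted p under 0.05 against 15.8% of all probes. On design 2, 0 of 90 members passed, where 0% of 54511 probes were called, and 17 (18.9%) had an unadjusted p under 0.05 against 15.7%.

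Tumours of one mouse also differed at a locus. The 3 lesions of mouse 608 ran from −0.15 to 0.25 at Igh, and the 3 of mouse 2094 from −0.071 to 0.29, each over 2 slides. The 2 lesions of mouse 2064, both on slide 2, had −0.17 and 0.15 at Igk and 0.30 and 0.014 at Igh. The Igh difference came from the Ighv15-2 probe with 3.25 in lesion 1 and −0.79 in lesion 2, since without that probe the lesions had 0.042 and 0.059, and the highest CD-HFD tumour 0.11. At Tcrg the ranges within a mouse ran from 0.088 in mouse 1770 to 0.20 in mouse 2094. The SD over mice was 0.057 at Tcrb and 0.074 at Tcra/Tcrd, sizes that 79.4% and 58.9% of windows reached, and 0.21 at Tcrg, which 3.55% of windows reached.

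Of 15 pairs of loci, 4 passed after adjustment by Pearson's r over the 14 mice and 3 by Spearman's rho (permutation, 100000 resamples). Igk correlated with Tcra/Tcrd (r = 0.82, permutation p = 0.00042, adjusted 0.00315; rho = 0.79, permutation p = 0.00115). Both correlated inversely with Tcrg, Igk with r = −0.89 (permutation p = 5.0e-05, adjusted 0.00075; rho = −0.91) and Tcra/Tcrd with r = −0.80 (permutation p = 0.00063, adjusted 0.00315; rho = −0.79). The last pair that passed was Igh with Igk (r = 0.66, adjusted permutation p = 0.0417; rho = 0.51, adjusted 0.253). Without the 2 mice farthest from the median of the locus named first, Tcra/Tcrd with Igk had r = 0.64, Tcrg with Igk −0.78, Tcra/Tcrd with Tcrg −0.52 and Igh with Igk 0.21, so the last relation rests on those mice, and none of the 15 passed after adjustment. Within slide 1 and slide 2 (6 mice each) Igk with Tcra/Tcrd had r = 0.91 (exact permutation p = 0.0153) and 0.78 (exact permutation p = 0.0694), while Igk with Tcrg had −0.75 (exact permutation p = 0.0708) and −0.31 (exact permutation p = 0.517), and Tcra/Tcrd with Tcrg −0.91 (exact permutation p = 0.0153) and −0.26 (exact permutation p = 0.638). Neither relation with Tcrg thus passed within slide 2. The medians of Igk (−0.051 on design 1 and 0.15 on design 2) and Tcrg (0.41 and 0.22) also differed between designs, and the part of the design in the pooled relations was not tested. Of 12 relations with noise or the GC slope of the array, 0 passed after adjustment. The largest was that of noise with Tcra/Tcrd (r = −0.67, adjusted permutation p = 0.105), which was −0.25 without the 2 extreme mice.

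The genes of the recombination machinery lie elsewhere in the genome, and the copy number of the 500 kb around each was compared with its flanks in the same fit. All 10 genes reported here were called over all tumours, 8 as higher and 2 as lower, where 69.8% of all regions were called. Rag1 and Rag2, which encode the recombinase and share their probes, were at 0.093 and 0.091. Dntt, the terminal transferase that adds bases at the joints, was at 0.15, and Dclre1c, which encodes the hairpin-opening nuclease Artemis, at 0.13. Among the end-joining genes, Prkdc (the DNA-dependent kinase) was at 0.25, Xrcc4 at 0.072, Xrcc5 and Xrcc6 (Ku80 and Ku70) at 0.17 and −0.071, Lig4 (the ligase) at 0.38 and Nhej1 at −0.19. The value of Lig4 was reached by 0.945% of windows, and those of the other genes called higher by 3.91% (Prkdc) to 30.3% (Xrcc4). After correction for GC content Xrcc4 was at 0.014 and no longer passed (adjusted p = 0.539), and Prkdc was at 0.075, Xrcc6 at −0.12, Lig4 at 0.23, Nhej1 at −0.033 and Dclre1c at 0.080. Rag1 and Rag2 rose to 0.13 each and Dntt to 0.17, and Xrcc5 was at 0.12. The corrected value of Lig4 was reached by 2.16% of windows. Without slide 2, Rag1 (0.062, adjusted p = 0.0727), Rag2 (0.060, adjusted p = 0.0813) and Xrcc4 (0.031, adjusted p = 0.170) did not pass. Between the groups limma called 0 of the 10, also 0 at an unadjusted p under 0.05, with fitted differences from −0.020 at Xrcc4 to 0.049 at Dclre1c. Of the neighbours of the loci, Ephb6 beside Tcrb was at −0.16 (adjusted p = 8.64e-09 in limma), and 8.37% of windows were at least as low. The probes within 500 kb of Ephb6 include Tcrb probes, and those of Dad1 include Tcra/Tcrd probes. Dad1 beside Tcra/Tcrd and Top3b near Igl were at 0.033 and 0.031 and did not pass. With the slide as a block both passed (adjusted p = 0.0311 and 0.0103), and after correction for GC content Dad1 was at 0.094 (adjusted p = 3.08e-06).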

How the data were processed

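Tumour DNA (Cy3) and a reference pool (Cy5) were hybridised to 2-colour Agilent copy number arrays without dye swaps, and the authors' deposited scanner files hold intensity values (processed signals, background-subtracted and dye-normalized) and log10 ratios made with Feature Extraction 11.0.1.1 on mm9 positions. A deposited table also holds the authors' loess-normalized log2 ratios for 11526 probes. The paper names no method for this assay. Here, log2 of the Cy3 over the Cy5 processed signal was computed, without control and outlier spots, and centred on the array median. The deposited log10 ratios were used only to check its direction. Regions needed at least 3 probes and flanks at least 10. Probes were matched by sequence to GRCm38, 99.9% at 1 place, and no coordinates were converted.

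Region minus flank was fitted with limma 3.58.1 (R 4.3.3; mouse as random block, statmod 1.5.0) over 2248 regions, and permutation tests used scipy 1.17.1. On simulated data with 200 changed windows, 70% were called at a change of 0.1 and 97.5% at 0.2 over all tumours, and 15% and 75.5% between groups. The simulated noise had the SD of the windows and no slide or design effect. Only 3.55% of windows reached the SD over mice of Tcrg and 7.11% that of Igl, so these shares do not carry over to them. All loci and parts were named, with the 2 lowest and 2 highest probes per locus by median, probes past the threshold, other genes inside the loci, and listed machinery and neighbour genes. One listed gene is not reported here. Values were already known when the probes beside D, J and C segments, the other Tcrg probes, Ighv15-2 and Igkv12-89 were picked. The members and lists were chosen with earlier results of these data known. Alternatives covered the normalization, background, GC content, dim and non-unique probes, probe sets, region summary, flank and window size, mouse, slide and array weights. GC content over 50 kb, leaving out each slide, fitting each design alone and Igh without 1 probe were added after seeing the data.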

Additional observations from a re-analysis of the deposited data

Results flagged for a closer look

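At Tcrg, mouse 2067 of the CD-HFD group, with 1 tumour on slide 1, had 0.80, and the 6 other CD-HFD mice had 0.16 to 0.35. Its distance from the next mouse was 0.69 of the range of the group, above the limit of 0.568 for 7 mice (Dixon's test). Of 12 groups tested, 1 mouse was found this way, where chance gives about 0.6. The Tcrg-C1 probe had 2.03 in this tumour and was not well above background there, and its part in the value was not tested.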

How the results depend on the processing

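Over all tumours, 5 of 6 loci were called, where 69.8% of all regions were called. The count was 3 without slide 2. It was also 3 with the authors' loess ratios, with only probes well above background and with only common probes (each with fewer loci testable). Leaving out each mouse gave 4 to 5, and with the slide as a block every locus was called. The share of all regions called is not given for these alternatives, so these counts are no result about the loci. Tcrg was called under all 18 alternatives run (0.24 to 0.38). With the GC content of the probe and its 50 kb, Tcrb turned to −0.017, Igh to −0.15, Igk to −0.098, Igl to −0.095 and the Igh V part to −0.078. Igh was −0.072 without flank subtraction, and Igk −0.042 with a flank of 1 Mb. Between groups no locus was called under any setting. Directions turned for Tcrb without slide 2 (−0.010), Tcra/Tcrd with loess ratios (−0.044) and Igk with common probes (−0.020). Tcrg turned with common probes (0.013), probe medians (0.070), no flank (0.035) and the slide as a block (0.0064), and ran from −0.067 to 0.023 with each mouse left out. Igl turned with normexp (0.0068) and array weights (0.042), and ran from −0.10 to 0.041 with each mouse left out. The Igh D, J and C part turned with normexp (0.0048), the slide as a block (0.0046), without slide 1 (0.12) and without slide 3 (0.060), and ran from −0.18 to 0.097 with each mouse left out. Of the 4 relations between loci, 1 passed with every tumour as independent and 0 without the 2 extreme mice, and of those with array quality 1 passed with the GC content of the probe. The cause of these changes was not tested. Of other values, 702 kept direction and side of the threshold, 16 no longer passed and 9 newly passed. No paired analysis was possible because no mouse number occurs in both groups. Array signal is a limit at Tcrg and Igk, where 87.6% and 88.3% of readings were well above background in both channels.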
